A study of Mus musculus with 58 samples.

Results

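The genes described here are 9 of the genes that make and wrap myelin, Mbp, Mobp, Mog, Mag, Cnp, Cldn11, Ermn, Opalin and Ugt8a, of 15171 genes in the deposited RNA-seq table. They were chosen by name, as a list of myelin and oligodendrocyte genes and not by a limit on a measured value, with earlier results of these data known. All 9 were found in the table, all had counts in each of the 58 mice, and none was removed by the filter on low counts.

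Myelin is the lipid-rich sheath that oligodendrocytes wrap around axons in the central nervous system so that impulses travel fast. Its compact layers are held together by small basic and membrane-spanning proteins, while adhesion proteins on the innermost and outermost layers face the axon and the surroundings. Oligodendrocytes arise from precursor cells that persist in the adult brain, and myelin and its cells are known to be lost and partly rebuilt around a brain lesion.

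The study asked how the loss of 1 copy of Abca1, the transporter that loads cholesterol and phospholipid onto APOE, changes the brain's response to traumatic brain injury (TBI) in mice that carry human APOE. All mice were homozygous targeted replacement mice on the C57BL/6 background, in which human APOE3 (E3) or human APOE4 (E4) stands in the place of the mouse gene, with both copies of Abca1 (Abca1+/+) or only 1 (Abca1+/-). At 3 months of age they received a controlled cortical impact to the left hemisphere (TBI) or the same craniotomy with no impact (Sham), and 14 days later the hippocampus and cortex of a coronal slice through the injury site were frozen together after the subcortical tissue had been dissected away. Each library came from 1 mouse. The groups, of both sexes, were E3/Abca1+/+ (8 Sham and 8 TBI mice), E3/Abca1+/- (7 Sham and 6 TBI), E4/Abca1+/+ (7 Sham and 7 TBI) and E4/Abca1+/- (7 Sham and 8 TBI). The model has no mice with mouse Apoe, so every difference below is between mice that all lack it, and the Abca1 deletion is present in every cell from conception.

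Totals ran from 4421308 to 37877346 counts per mouse, and the 9 genes together took 0.154 to 0.263% of them. The 28 Abca1+/- mice were sequenced more deeply than the 30 Abca1+/+ mice, with median totals of 18871445 and 8350020. Abca1 itself was lower in Abca1+/- mice by 0.42 on the log2 scale on average (edgeR's quasi-likelihood test, SE 0.094, adjusted p = 0.000816). Of the single pairs of groups only E3 Sham mice passed (-0.45, adjusted p = 0.00999). The change was -0.71 in injured E3 mice (adjusted p = 0.124), -0.36 in E4 Sham mice (adjusted p = 0.0785) and -0.18 in injured E4 mice (adjusted p = 0.755). Markers of microglia, astrocytes and neurons were all measured, with summed microglial genes at 298 to 451 CPM in Sham and 539 to 1078 CPM in TBI mice. Tissue from outside the intended dissection varied between mice. Choroid plexus genes summed to over 100 CPM (301 to 2060) in 16 mice and to 11.5 to 42.9 CPM in the other 42 mice. Those 16 were 5 of 29 E3 and 11 of 29 E4 mice, 11 Abca1+/- and 5 Abca1+/+ mice, and 8 TBI and 8 Sham mice. In the E4/Abca1+/- TBI group, the mouse numbered replicate 8 had striatal genes at 669 CPM, against 104 to 194 CPM in the other 57 mice. Calls of the 9 genes and counts of the lineage lists that change without these mice are given both ways. Summed thalamic genes ran from 97.0 to 182 CPM in E3 mice (median 112) and from 94.8 to 271 CPM in E4 mice (median 118). No mouse was left out for its thalamic genes. The part of all these tissues in the results was not tested. Levels are given as CPM, each count relative to its library's total after scaling by edgeR's TMM factors. Changes are log2 fold changes with their standard error (SE), and a gene is said to pass where its Benjamini-Hochberg adjusted p over all 15171 genes is below 0.05.

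Upstream windows of 5 of the genes are shown because they hold, or lack, letters bound by 2 families of factors that drive myelin genes. These are the SOX core ACAAAG, a SOX10-type sequence, and the MYRF sequences CTGGCAC and CTGGTAC, each searched on both strands over the 250 bases before the RefSeq start (GRCm38.p6, the mm10 assembly). The table of RefSeq windows held 10 windows for 8 of the 9 genes, and none for Mbp. The SOX core was found in 4 of the 8 genes, namely Mag, Mobp, Cnp and Opalin, and a MYRF sequence in 3, namely Mag, Cnp and Mog. Over all 32851 windows of this length, 16.5% held the SOX core and 5.93% a MYRF sequence. Mobp held 6 SOX core matches, and Ermn, Ugt8a and Cldn11 held neither sequence. A match is a description of the letters and not a bound site. Each window is printed 5′ to 3′ on the gene's own strand, with matches in capitals. The Mog window is chr17:37023399-37023648 on the minus strand, Mag chr7:30914864-30915113 on the minus strand, Cnp chr11:100574689-100574938 on the plus strand, Cldn11 chr3:31149670-31149919 on the plus strand and Opalin chr19:41077114-41077363 on the minus strand.
Mog: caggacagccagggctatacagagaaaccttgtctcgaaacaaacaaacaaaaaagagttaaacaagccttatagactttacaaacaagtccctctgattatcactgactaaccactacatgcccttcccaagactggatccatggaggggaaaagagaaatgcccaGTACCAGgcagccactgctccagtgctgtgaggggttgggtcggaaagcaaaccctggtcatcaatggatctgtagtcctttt
Mag: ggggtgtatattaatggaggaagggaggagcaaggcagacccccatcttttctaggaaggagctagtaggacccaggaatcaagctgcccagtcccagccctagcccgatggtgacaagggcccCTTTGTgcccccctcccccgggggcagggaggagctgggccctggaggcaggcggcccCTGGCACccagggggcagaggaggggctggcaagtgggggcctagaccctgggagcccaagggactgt
Cnp: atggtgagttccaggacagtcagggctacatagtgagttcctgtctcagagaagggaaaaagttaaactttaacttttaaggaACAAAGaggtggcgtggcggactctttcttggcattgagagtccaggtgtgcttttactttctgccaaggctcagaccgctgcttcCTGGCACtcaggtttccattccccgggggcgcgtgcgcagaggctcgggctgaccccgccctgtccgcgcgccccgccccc
Cldn11: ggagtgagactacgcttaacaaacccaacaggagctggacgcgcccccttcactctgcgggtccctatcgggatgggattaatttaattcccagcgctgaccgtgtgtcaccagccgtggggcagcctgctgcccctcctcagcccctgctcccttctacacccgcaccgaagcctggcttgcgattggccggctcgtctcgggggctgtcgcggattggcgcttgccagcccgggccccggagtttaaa
Opalin: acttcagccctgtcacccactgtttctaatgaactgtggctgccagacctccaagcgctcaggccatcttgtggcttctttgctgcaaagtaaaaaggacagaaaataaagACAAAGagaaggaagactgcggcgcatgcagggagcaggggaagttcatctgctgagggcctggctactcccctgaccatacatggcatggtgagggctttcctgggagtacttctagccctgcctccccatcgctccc

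Per kilobase of annotated exon, the levels of the 9 genes spanned a wide range in the same mice. Mbp, myelin basic protein of the compact sheath, was highest at 144 ± 20.0 CPM per exon kb (mean ± SD, n = 58 mice). Cnp, an enzyme that keeps the cytoplasmic channels of myelin open, stood at 71.4 ± 9.66, and Cldn11, the claudin of the tight junctions between myelin layers, at 63.5 ± 10.2. These 2 were close, with Cnp above Cldn11 in 48 of 58 mice and a mean log2 difference of 0.17 (SD 0.18). Mag, the adhesion protein of the layer next to the axon, was at 33.1 ± 5.53 CPM per exon kb, and Mog, a surface protein of the outermost layer, at 25.3 ± 4.07. Mobp, another basic protein of compact myelin, reached 19.6 ± 3.10 and Ermn, a cytoskeletal protein of oligodendrocyte processes, 17.2 ± 3.05. Mobp exceeded Ermn in 45 of 58 mice, with a mean log2 difference of 0.19 (SD 0.21), so this pair too was within its spread. Ugt8a, the enzyme that makes the galactolipids of myelin, was at 11.8 ± 2.11, and Opalin, a transmembrane protein of oligodendrocytes, was lowest at 3.10 ± 0.805. Every other neighbouring pair kept its order in all 58 mice. These levels divide by the exons of all annotated transcripts, so a gene read mainly from short transcripts, as Mbp can be, is understated.

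The lowest gene was also the least precisely measured. Opalin had 20 to 418 counts per mouse (median 132.5) and a within-group SD of 0.37 on the log2 scale, of which counting alone gives 0.16. Mbp had 4417 to 53377 counts per mouse and a within-group SD of 0.16, of which counting gives 0.013. The other 7 genes had within-group SDs of 0.17 to 0.23.

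Mice that were high in one of these genes were high in the others. After each gene's group means were taken off, the 28 pairs of genes without Opalin correlated at Pearson's r of 0.46 to 0.86 over the 58 mice (median 0.74), as a description over libraries that share depth and dissection. The highest values were those of Mbp with Mag (0.86), Mag with Cnp (0.85) and Ermn with Ugt8a (0.85). Opalin correlated with the other 8 genes at 0.20 to 0.62. A direction that these genes share in a comparison below is therefore not a set of separate observations. Among the 10 genes whose deviations were most like the mean of the 9, out of 15162 other genes, were Fa2h (r = 0.81, which hydroxylates myelin lipids), Car2 (0.81, a carbonic anhydrase), Bcas1 (0.81, a gene of newly forming oligodendrocytes), Tmem88b (0.80), Mal (0.79, a myelin proteolipid), Plekhb1 (0.77), Myrf (0.75, the myelin regulatory factor), Tspan2 (0.74, a tetraspanin) and Qdpr (0.73). All 10 stood on the lists of oligodendrocyte genes used here, and the median r of all genes was 0.00, with the 99th percentile at 0.46.

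**Figure D1:**
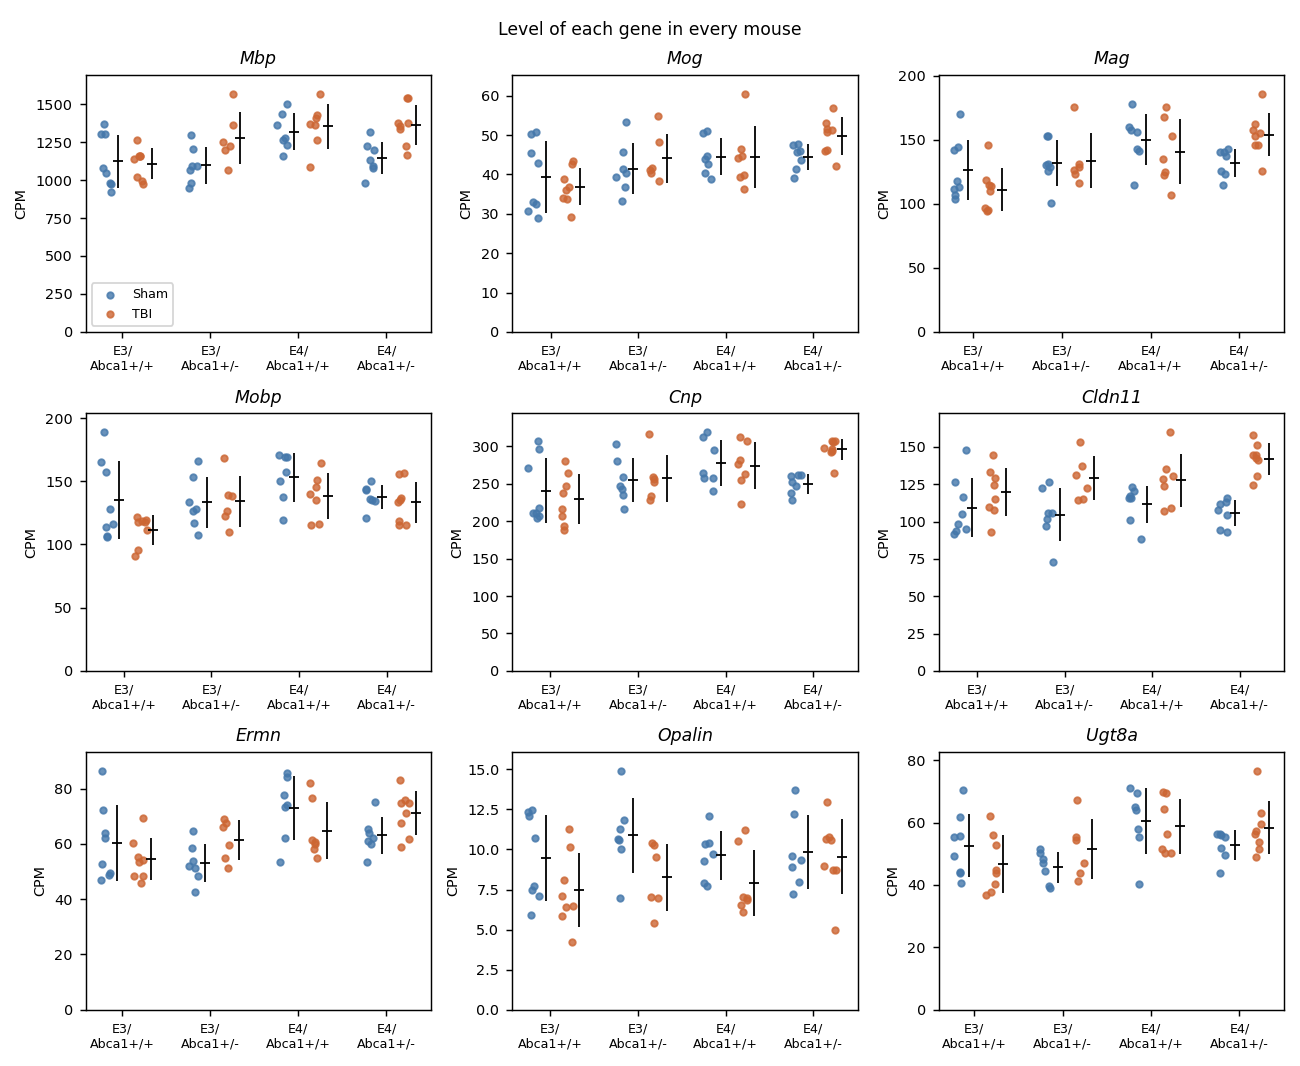
Level of each of the 9 genes in CPM (linear axis from 0) in every mouse, by genotype, with Sham and TBI mice side by side; points are mice, and each cross and vertical line is the group mean ± SD. Cldn11 in E4/Abca1+/- TBI mice (124 to 158 CPM) lies above all Sham mice of that genotype (93.2 to 116 CPM), while most other pairs of groups overlap.

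Injury moved the 9 genes little and not in one direction. On average over the 4 genotypes, 3 of 9 passed, with Cldn11 and Mbp higher and Opalin lower in TBI than in Sham mice. Of all genes, 53.3% passed in this comparison, 29.0% higher and 24.3% lower, so these genes were not called more often than the table as a whole. The median change of the 9 was 0.02, against 0.01 over all genes. In tissue that holds many cell types, fewer cells and less RNA per cell cannot be told apart, and neither can a change in the share of other cells.

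Cldn11 rose the most. It was at 73.0 CPM in the lowest, 106 in the median and 148 in the highest of 29 Sham mice, and at 93.3, 130 and 160 CPM in the 29 TBI mice. The groups overlapped, but the median TBI mouse was above most Sham mice. The mean change was 0.26 ± 0.048 (adjusted p = 6.94e-06), which is 19.8% higher, and over 9 other ways of processing the data it was 0.24 to 0.26 and passed in each.

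Mbp was at 919, 1155 and 1497 CPM in the lowest, median and highest Sham mouse and at 976, 1262 and 1569 CPM in TBI mice. Its mean change was 0.12 ± 0.041 (adjusted p = 0.00980), and without the 16 mice with choroid plexus genes it was 0.10 with an adjusted p of 0.0995. The overlap between Sham and TBI mice was nearly complete.

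Opalin went the other way, from 5.88, 10.02 and 14.9 CPM in the lowest, median and highest Sham mouse to 4.23, 8.10 and 12.9 CPM in TBI mice. The change was -0.28 ± 0.092 (adjusted p = 0.00847). It no longer passed without the mice with choroid plexus genes (-0.24, adjusted p = 0.0707) or with libraries thinned to the lowest total (-0.37, adjusted p = 0.0819), and its adjusted p ranged from 0.00439 to 0.0819 over 9 alternatives. By genotype, its lowest, median and highest levels went from 5.88, 9.21 and 12.5 CPM in Sham to 4.23, 6.80 and 11.3 CPM in TBI mice of E3/Abca1+/+, and the median and highest from 10.7 and 14.9 to 8.27 and 10.4 CPM in E3/Abca1+/-. They went from 7.73, 9.70 and 12.1 to 6.11, 6.98 and 11.2 CPM in E4/Abca1+/+, where 5 of 7 TBI mice lay below every Sham mouse, and from 7.20, 9.34 and 13.7 to 4.95, 9.78 and 12.9 CPM in E4/Abca1+/-. The median was lower after TBI in 3 of the 4 genotypes, and 0 TBI mice in any genotype lay above every Sham mouse.

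Mobp, with Mbp one of the basic proteins of compact myelin, was at 106, 136 and 189 CPM in Sham mice and at 90.9, 123 and 168 CPM in TBI mice. Its change of -0.12 ± 0.052 just missed the threshold (adjusted p = 0.0519), and it passed in 4 of 9 alternatives (adjusted p = 0.0285 to 0.0353). The surface proteins differed little between the conditions, with Mog at 0.03 ± 0.052 and Mag at -0.01 ± 0.052. Cnp (0.04 ± 0.043), Ermn (0.01 ± 0.054) and Ugt8a (0.02 ± 0.058) did not pass either, and their 95% intervals reached at most 0.14.

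Within single genotypes the picture was uneven. In E4/Abca1+/- mice 4 of 9 genes passed, all higher after injury, where 32.3% of all genes passed and 19.7% passed as higher. In E3/Abca1+/- mice 1 of 9 passed (23.7% of all genes), and without the mice with choroid plexus genes 3 did (Mbp, Ermn and Cldn11). Leaving those mice out removed 3 of 7 Sham and 1 of 6 TBI mice of that genotype. In E3/Abca1+/+ mice and in E4/Abca1+/+ mice 0 of 9 passed by edgeR (22.7% and 13.7% of all genes), while DESeq2 called 1 (Mobp) and 0. In each, 1 gene of the 9 had an unadjusted p below 0.05 by edgeR, where 5244 and 4039 of all 15171 genes did.

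The E4/Abca1+/- group held the clearest separation. Cldn11 was at 93.2, 108 and 116 CPM in the lowest, median and highest of 7 Sham mice and at 124, 143 and 158 CPM in 8 TBI mice, so that 8 of 8 TBI mice were above every Sham mouse (0.43 ± 0.058, adjusted p = 2.47e-05). Cnp was at 228, 252 and 262 CPM in Sham and at 265, 298 and 308 CPM in TBI mice, with no overlap either (0.24 ± 0.042, adjusted p = 0.000218). Both passed in all 10 alternatives. How many of all genes separated this fully was not counted, and 32.3% of all genes passed in this genotype.

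Mbp and Mag in the same genotype were higher with some overlap. Mbp was at 983, 1130 and 1314 CPM in Sham and 1163, 1366 and 1543 CPM in TBI mice, with 6 of 8 TBI mice above every Sham mouse (0.25 ± 0.067, adjusted p = 0.00759). Mag was at 115, 138 and 143 CPM in Sham and 126, 154 and 186 CPM in TBI mice, with 7 of 8 above (0.22 ± 0.068, adjusted p = 0.0183). Neither passed without the mice with choroid plexus genes, which left changes of 0.14 (adjusted p = 0.340) for Mbp and 0.15 (adjusted p = 0.363) for Mag. Of this genotype, 3 of 7 Sham and 4 of 8 TBI mice were then left out, so the test also had fewer mice. Mag also did not pass with thinned libraries (0.14, adjusted p = 0.306) or in 1 fit over all mice (0.22, adjusted p = 0.0798). Leaving out only the TBI mouse with striatal genes left all 4 genes past the threshold, with Mbp at 0.23, Mag at 0.21, Cnp at 0.24 and Cldn11 at 0.41. Mobp (-0.05) and Opalin (-0.07) did not share the direction.

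In the other genotypes Cldn11 again had the most positive change of the 9 genes, while that of Opalin was larger in size and negative, at -0.37 for E3/Abca1+/+, -0.40 for E3/Abca1+/- and -0.28 for E4/Abca1+/+, none of which passed. Cldn11 was at 73.0, 106 and 127 CPM in E3/Abca1+/- Sham and at 115, 127 and 153 CPM in TBI mice (0.30 ± 0.10, adjusted p = 0.0429), with 3 of 6 TBI mice above every Sham mouse. This call was lost with DESeq2's size factors (adjusted p = 0.0548) and with libraries thinned to the lowest total (adjusted p = 0.310). In E4/Abca1+/+ mice it was at 88.4, 116 and 123 CPM in Sham and 107, 128 and 160 CPM in TBI mice, with 5 of 7 above (0.19 ± 0.086, adjusted p = 0.173). In E3/Abca1+/+ mice, at 92.0, 102 and 148 CPM in Sham and 93.3, 120 and 145 CPM in TBI mice, none lay above every Sham mouse (0.13 ± 0.099, adjusted p = 0.404).

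**Figure D2:**
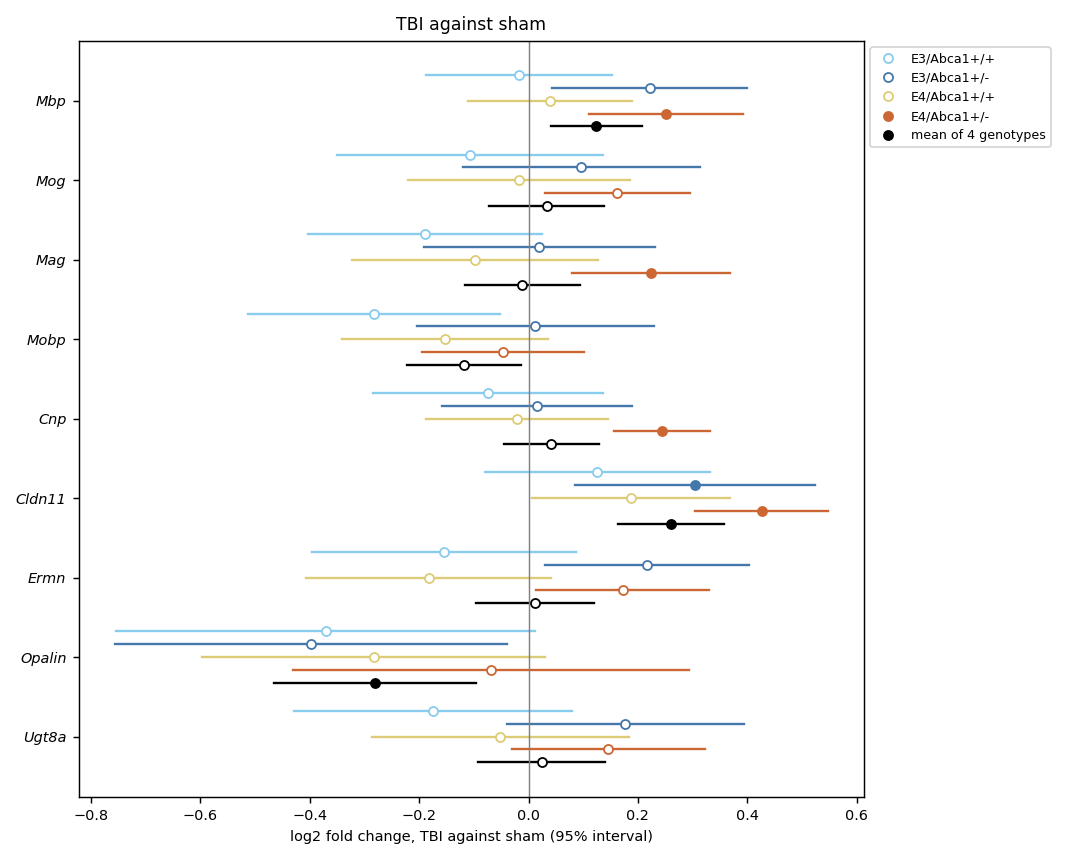
Change of each of the 9 genes after injury on the log2 scale (TBI against Sham), in each genotype and on average; bars are 95% intervals and filled points passed the test. Cldn11 lies to the right of 0 in every genotype (0.13 to 0.43) and Opalin to the left (-0.40 to -0.07).

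The signed change after injury was more positive in Abca1+/- than in Abca1+/+ mice for all 9 genes, by 0.09 to 0.36, and for 8 of 9 with thinned libraries, but none passed the test of that difference. For Mobp this meant changes nearer to 0 in Abca1+/- mice (0.01 in E3 and -0.05 in E4) than in Abca1+/+ mice (-0.28 and -0.15). The largest difference was that of Ermn (0.36 ± 0.11, unadjusted p = 0.00144, adjusted p = 1.00), and 6 of 9 had an unadjusted p below 0.05. The median level of Ermn went from 57.4 CPM in Sham to 54.0 CPM in TBI mice of E3/Abca1+/+ and from 74.3 to 60.7 CPM in E4/Abca1+/+, but from 52.2 to 62.8 CPM in E3/Abca1+/- and from 62.2 to 73.0 CPM in E4/Abca1+/-. Its ranges overlapped in each genotype, as in E3/Abca1+/- with 42.7 to 64.5 CPM in Sham and 51.1 to 68.9 CPM in TBI mice. Of all genes, 53.7% had the more positive injury change in Abca1+/- mice. By edgeR 0.0% of all genes passed, with 401 of 15171 at an unadjusted p below 0.05, and DESeq2 called 0 of the 9. Depth differed along the same line, with Abca1+/- libraries 2.26 times as deep by the ratio of medians, and its part was not tested. The difference of the injury change between E4 and E3 mice passed for 0 of 9 genes (0.00659% of all genes), with 0 at an unadjusted p below 0.05 and 0 by DESeq2.

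The ratio of each other gene to Mbp of the same mouse does not depend on how libraries are scaled. All 8 ratios share Mbp, which was itself higher after injury, so they are not separate observations. The log2 ratio of Cldn11 to Mbp went from -3.44 in Sham to -3.30 in TBI mice, a rise of 0.14 ± 0.036 (permutation test within genotypes, two-sided, p = 0.00019, adjusted over 15170 genes 0.000715). Mobp fell against Mbp by 0.24 on the log2 scale (SE 0.033, p = 1e-05, the smallest that 100000 permutations can give, adjusted p = 6.3e-05). Opalin fell by 0.40 (SE 0.096, adjusted p = 0.000307) and Mag by 0.14 (SE 0.028, adjusted p = 0.000192). For each of the 8 genes the direction was the same in 4 of 4 genotypes. The share of all genes for which this held was not counted.

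Cnp, Mog, Ermn and Ugt8a fell against Mbp by 0.08 to 0.10, with adjusted p of 0.0100 to 0.0419, and none of these 4 passed without the mice with choroid plexus genes. Of all genes, 56.1% passed in this comparison, with a median ratio change of -0.11, Mbp itself being higher after injury. The ratio changes of Mag, Cnp, Mog, Ermn and Ugt8a thus lay near that median, Cldn11 lay above it, and Mobp and Opalin lay below it. The ratio of Mobp to Mbp, both basic proteins of compact myelin, changed by -0.25 in E3/Abca1+/+, -0.21 in E3/Abca1+/-, -0.19 in E4/Abca1+/+ and -0.30 in E4/Abca1+/- mice.

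Between the APOE isoforms the 9 genes leaned one way. On average over the 4 pairs of groups, all 9 were higher in E4 than in E3 mice, and 6 of 9 passed, all of them higher, where 15.0% of all genes passed and 8.03% passed as higher. The median change of the 9 was 0.17, against 0.00 over all genes, of which 51.1% were higher in E4 mice. Isoform cannot be told apart from other differences between the E3 and E4 targeted replacement mice, which were not tested.

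Ermn differed the most, at 42.7, 54.3 and 86.3 CPM in the lowest, median and highest of 29 E3 mice and at 53.4, 65.3 and 85.8 CPM in 29 E4 mice (0.24 ± 0.054, adjusted p = 0.00102). Ugt8a was at 36.7, 47.1 and 70.4 CPM in E3 and 40.4, 56.2 and 76.4 CPM in E4 mice (0.23 ± 0.058, adjusted p = 0.00458). Both distributions overlapped widely, with the highest E3 mouse near the highest E4 mouse.

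Of the surface proteins, Mag was at 94.1, 123 and 176 CPM in E3 and 107, 143 and 186 CPM in E4 mice (0.20 ± 0.052, adjusted p = 0.00629). Mog was at 28.9, 40.3 and 54.9 CPM in E3 and 36.4, 45.7 and 60.5 CPM in E4 mice (0.17 ± 0.052, adjusted p = 0.0182). The E4 values were again shifted as a whole rather than split off.

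Mbp was at 919, 1141 and 1569 CPM in E3 and 983, 1314 and 1565 CPM in E4 mice (0.17 ± 0.041, adjusted p = 0.00295). Cnp was at 189, 244 and 316 CPM in E3 and 223, 265 and 319 CPM in E4 mice (0.16 ± 0.043, adjusted p = 0.00794). Mobp (0.13 ± 0.052, adjusted p = 0.0833), Cldn11 (0.07 ± 0.048, adjusted p = 0.378) and Opalin (0.04 ± 0.092, adjusted p = 0.839) did not pass. The effects of injury and isoform on these genes were not tested against each other.

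In single pairs of groups none of these isoform differences was called. By edgeR 0 of 9 genes passed in Abca1+/+ Sham, Abca1+/+ TBI, Abca1+/- Sham and Abca1+/- TBI mice, where 0.356%, 0.211%, 5.11% and 2.74% of all genes passed. The median change of the 9 in these pairs was 0.20, 0.26, 0.05 and 0.18, with 8, 9, 7 and 8 genes higher in E4 mice. Of all genes, 50.0%, 47.9%, 49.3% and 55.1% were higher in E4 mice. The lean was thus small in Abca1+/- Sham mice, and whether it depended on Abca1 copy number was not tested. At an unadjusted p below 0.05 the counts were 4, 7, 2 and 3, where 1337, 1090, 3489 and 2901 of all 15171 genes were. DESeq2 called 0, 1 (Mbp), 1 (Ermn) and 0. The highest thalamic sums were in E4 mice, and more E4 than E3 mice had choroid plexus genes, as given above. Without all 16 such mice only Mbp (0.18, adjusted p = 0.0253) and Mag (0.19, adjusted p = 0.0498) passed, and the other 4 genes kept changes of 0.15 to 0.19 with adjusted p of 0.0576 to 0.160. With libraries thinned to the lowest total, Mbp, Mag and Ermn passed.

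**Figure D3:**
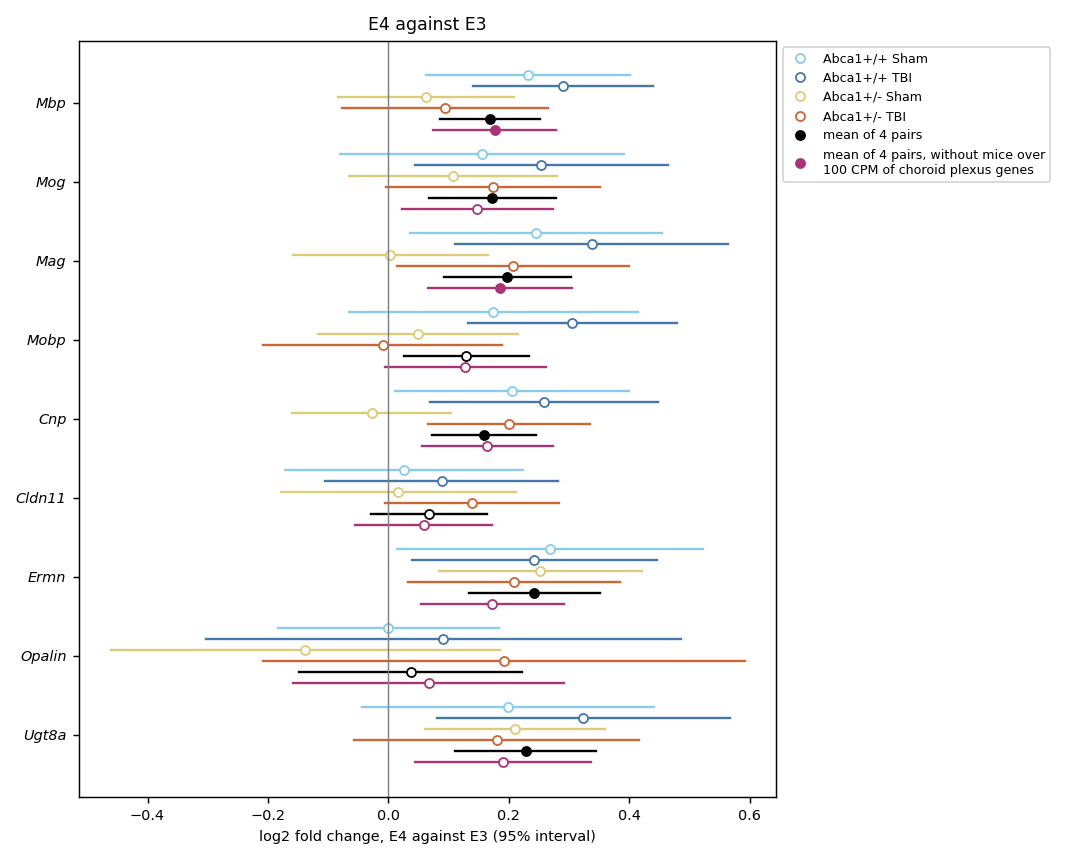
Change of each of the 9 genes between APOE isoforms on the log2 scale (E4 against E3) in each of 4 pairs of groups, on average, and on average without the mice with choroid plexus genes; bars are 95% intervals and filled points passed the test. The average lies to the right of 0 for all 9 genes, from 0.04 for Opalin to 0.24 for Ermn.

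Having 1 copy of Abca1 in place of 2 left the 9 genes without a call. On average over the 4 pairs, 0 of 9 passed by edgeR and 0 by DESeq2, where 17.9% of all genes passed. The changes ran from -0.07 to 0.13, and only Mog had an unadjusted p below 0.05 (0.12 ± 0.052, adjusted p = 0.119), where 4586 of all 15171 genes did. In the single pairs 0 of 9 passed by either tool, where 2.27% (E3 Sham), 0.0923% (E3 TBI), 0.87% (E4 Sham) and 1.36% (E4 TBI) of all genes passed. The uncalled values leaned in opposite directions. In injured E3 mice all 9 genes were higher in Abca1+/- mice, by 0.11 to 0.27, with 4 at an unadjusted p below 0.05, and in E4 Sham mice 8 of 9 were lower, by up to 0.21, with 6 at an unadjusted p below 0.05. Of all genes, 48.0% were higher in Abca1+/- mice among injured E3 mice and 49.1% among E4 Sham mice. In E3 Sham and E4 TBI mice the count at an unadjusted p below 0.05 was 0. Of all 15171 genes, 2493 (E3 Sham), 1393 (E3 TBI), 2407 (E4 Sham) and 2772 (E4 TBI) were at an unadjusted p below 0.05.

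Sex made no called difference. In a model with group, 0 of 9 genes passed between 28 female and 30 male mice by edgeR and 0 by DESeq2, where 10.1% of all genes passed. Cldn11 was the only gene of the 9 at an unadjusted p below 0.05 (0.12 ± 0.046 higher in females, adjusted p = 0.0869), where 3935 of all 15171 genes were. Of the mice with choroid plexus genes, 12 were female and 4 male. The difference of the injury change between the sexes passed for 0 of 9 genes by edgeR, with 0 at an unadjusted p below 0.05 and 0 by DESeq2, where 0.0% of all genes passed and 1133 had an unadjusted p below 0.05.

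Other genes of the lineage were measured in the same mice. On average after TBI 29.0% of all genes passed as higher and 24.3% as lower, the shares to set beside the counts of each list. Calls over all genes also fell with thinned libraries, as given in the last section. Of 14 genes of precursors and newly formed oligodendrocytes, 9 were higher and 1 lower after TBI on average, with a median of 0.22, and the same numbers passed without the mice with choroid plexus genes. Enpp6, a choline phosphodiesterase of newly forming oligodendrocytes, rose by 0.53 ± 0.076 (adjusted p = 2.68e-08). Its lowest, median and highest levels were 5.25, 5.55 and 6.27 CPM in E4/Abca1+/- Sham mice and 6.79, 11.3 and 14.1 CPM in TBI mice, so those groups did not overlap. The share of all genes without overlap there was not counted. Bmp4, a signal that restrains the maturation of precursors, rose by 0.49, Itpr2, a calcium release channel, by 0.32, and Bcas1 by 0.30. Tnr, the matrix protein tenascin-R, fell by 0.20 on the log2 scale. With thinned libraries 6 were higher and 1 lower.

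Of 10 transcription factors of the lineage, 5 were higher and 1 lower after TBI (median 0.14). Tcf7l2 rose by 0.60, Nkx2-2 by 0.25, Zfp488 by 0.21 and Olig2 by 0.18, and Zfp536 fell by 0.20 on the log2 scale. Tcf7l2 is also strongly expressed in thalamus, and of 7 thalamic genes 3 were higher and 3 lower in TBI mice. Without the mice with choroid plexus genes, 3 transcription factors were higher and 1 lower, and with thinned libraries 2 and 0.

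Of 29 other genes of mature oligodendrocytes and myelin, 13 were higher and 4 lower after TBI (median 0.13). Trf, transferrin, which oligodendrocytes and choroid plexus both make, rose by 0.60 ± 0.074 (adjusted p = 5.15e-10), and Gsn, the actin-severing protein gelsolin, by 0.59. Nkx6-2, a homeobox factor, and Evi2a each rose by 0.32. Mal fell by 0.21, Cntn2, an axonal and glial adhesion protein, by 0.17, Septin4, a cytoskeletal septin, by 0.16 and Gpr37, a receptor of oligodendrocytes, by 0.10, all on the log2 scale. Without the mice with choroid plexus genes 9 were higher and 3 lower, and with thinned libraries 6 and 3.

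Genes of the paranode and node, where the myelin sheath meets the axon, fell. Of 7, 6 were lower and 0 higher, among them Ank3, the ankyrin of the node (-0.31), Cntnap1, the paranodal adhesion protein (-0.30), and Dlg1 (-0.20). Cntn2 stands on this list and on that of the mature genes, and is counted in both. Several paranode and node genes, Ank3 and Cntnap1 among them, are made by neurons, of whose 6 markers 5 were lower and 0 higher. Of the 6 listed genes of peripheral myelin, 3 were measured. Pmp22 was 0.72 ± 0.068 higher in TBI mice and Drp2 was lower (-0.08).

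Markers of other cells and regions, given for comparison, moved as follows after TBI. All 6 microglial and all 6 astrocytic genes were higher, as were 4 of 6 endothelial genes, and 6 of 8 cortical genes were lower. Of 8 hippocampal genes 1 was higher and 2 lower, and of the 6 striatal and the 6 choroid plexus genes 0 passed by edgeR. Summed neuronal genes ran from 7438 to 8456 CPM in Sham and from 5362 to 7694 CPM in TBI mice. The part of these shifts in the changes of the myelin genes was not tested.

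**Figure D4:**
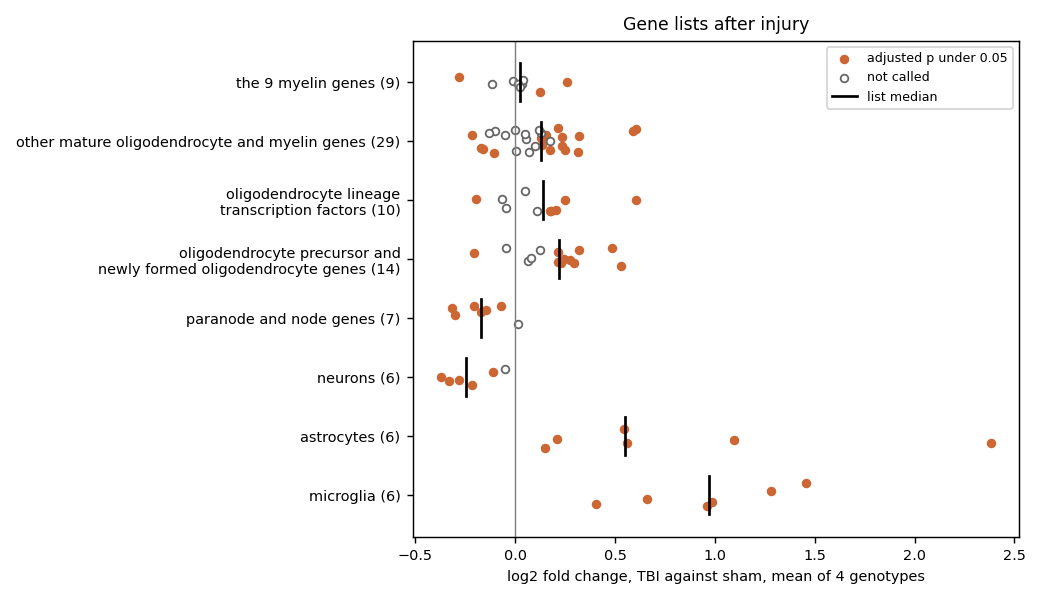
Change of each gene after injury on the log2 scale (TBI against Sham, mean of 4 genotypes), by gene list; points are genes, filled where they passed, lines are list medians, and the number in brackets is how many were measured. The 9 myelin genes span -0.28 to 0.26, around a median of 0.02, while the microglial genes have a median of 0.97.

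Between isoforms the lists followed the 9 genes in part. Of the 29 other mature genes 11 were higher and 0 lower in E4 mice (median 0.10), which fell to 4 without the mice with choroid plexus genes and to 2 with thinned libraries. Among them was Gjb1, a connexin of myelin (0.26 ± 0.067, adjusted p = 0.00508). Of the precursor genes 3 were higher and 0 lower, of the transcription factors 1 and 0, of the paranode and node genes 1 and 0, and of the peripheral myelin genes only Pmp22 (0.25 ± 0.068, adjusted p = 0.00879). Of all genes, 8.03% passed as higher and 6.99% as lower. The counts of the transcription factors and of the paranode and node genes were near that share. The precursor genes kept a count of 3 without the mice with choroid plexus genes and with thinned libraries, while the counts of the transcription factors and of the paranode and node genes became 0 in both. Enpp6 was 0.44 ± 0.076 higher in E4 mice (adjusted p = 2.44e-05).

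Fyn, a Src-family kinase that acts downstream of Mag and in the growth of oligodendrocyte processes but is also made by neurons and other cells, stood apart from all of these. It was at 75.5 to 118 CPM in the 29 E3 mice and at 128 to 167 CPM in the 29 E4 mice, with no overlap, and the difference was 0.68 ± 0.039 (adjusted p = 2.52e-20). It passed in each of the 4 pairs of groups, at 0.59 (adjusted p = 0.00235) in Abca1+/+ TBI, 0.66 (3.46e-05) in Abca1+/+ Sham, 0.67 (0.000217) in Abca1+/- Sham and 0.79 (3.12e-07) in Abca1+/- TBI mice. No member of the 9 genes showed a split of this kind between E3 and E4 mice. How many of all genes showed one was not counted. As above, isoform cannot be told apart from other differences between the E3 and E4 mice.

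With Abca1 copy number, 6 genes passed on average, namely 1 of 29 mature genes, 1 of 10 transcription factors, 1 of 14 precursor genes and 3 of 7 paranode and node genes, where 17.9% of all genes passed. Without the mice with choroid plexus genes, and likewise with thinned libraries, 2 genes passed, both of the paranode and node list. The 4 largest changes were those of Tcf7l2 (-0.59), Gpr17, a receptor of committed precursors (0.21), Cadm4, the adhesion protein by which myelin holds the axon (0.16), and Lpar1, a lysophosphatidic acid receptor (-0.15). Tcf7l2 is also a thalamic gene. Summed thalamic genes had a median of 115 CPM in Abca1+/+ mice (highest 271) and 113 CPM in Abca1+/- mice (highest 182). The part of thalamic tissue in its change was not tested. In single pairs Cadm4 passed in E3 Sham mice (0.26) and Sox10, the factor that specifies the lineage, in E4 Sham mice (-0.34). Between the sexes Pdgfra, the growth factor receptor of precursors, was 0.18, Itpr2 0.17 and Mal 0.17 higher, and Cntn2 lower (-0.11), in females.

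Among the 29 injured mice, Cldn11 followed the level of microglial genes more closely than the other 8 genes did by value. After group means were taken off, its log2 CPM correlated with that of the 6 summed microglial genes at r = 0.64 (permutation within groups, two-sided, p = 0.00042, adjusted over 15165 genes 0.00599) and Spearman's rho of 0.64 (p = 0.00041, adjusted 0.00727), where 15.7% of all genes passed. Without the 2 mice farthest from the median, r was 0.56. It was 0.69 within 15 Abca1+/+ and 0.55 within 14 Abca1+/- mice, the deeper libraries. The r of Cldn11 stood at percentile 93.7 of all genes.

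The other 8 genes had r of 0.13 (Mobp) to 0.38 (Ermn), and none passed. Differences between these correlations were not tested. Without the mice with choroid plexus genes the r of Cldn11 was 0.46 and no longer passed (adjusted p = 0.223). The E4/Abca1+/- TBI group, in which Cldn11 was highest, also had the highest microglial sum, with a median of 869 CPM against 628 to 649 CPM in the other TBI groups. The part of microglial RNA in the rise of Cldn11 was not tested.

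**Figure D5:**
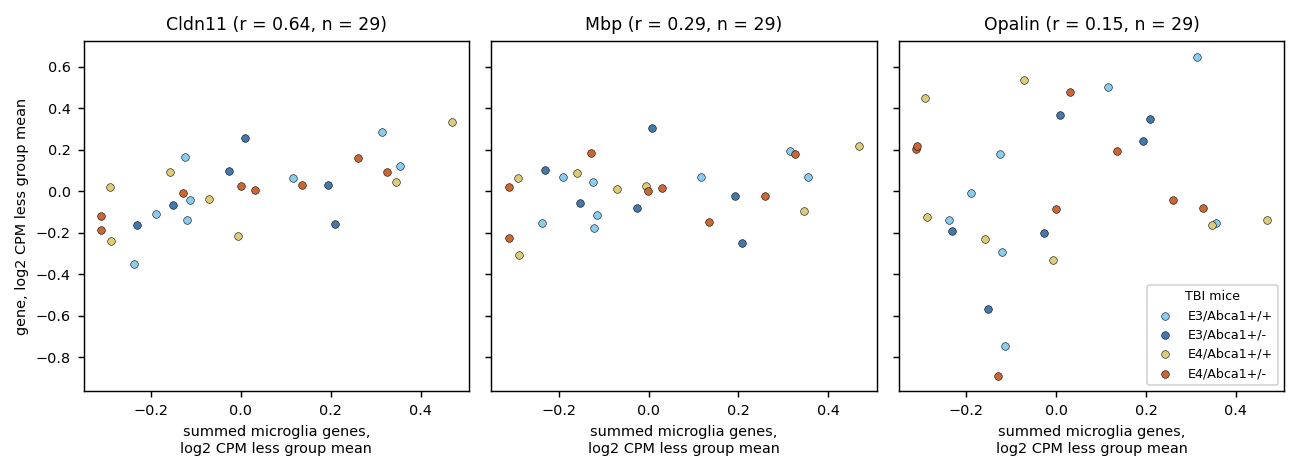
Log2 CPM of Cldn11, Mbp and Opalin less the group mean (vertical) against summed microglial genes on the same scale (horizontal) in the 29 injured mice, with points by genotype. Cldn11 rises along the axis (r = 0.64), and Mbp (r = 0.29) and Opalin (r = 0.15) do so less.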

How the data were processed

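RNA was sequenced from the hippocampus and cortex at the injury site of 58 mice. The authors deposited 1 table of raw counts per gene, made with Subread 1.5.0 and featureCounts on mm10 per the submitters' processing notes and the study's methods; the annotation and strand setting are not given in the sources used here, so overlapping and antisense transcripts could share reads. The study's own tests used edgeR. The deposited counts were used as they stand, after 2 blank lines were dropped and 23 symbols held as dates were restored through the identifier column, which left 15171 genes, and 0 per-sample columns were unused. Mice were grouped by the labels, with replicates numbered in accession order.

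The filterByExpr function removed 0 genes. TMM factors ran from 0.954 to 1.04. Pairs of groups were tested with edgeR 4.0.16 (quasi-likelihood) on the 2 groups compared, and means, interactions and sex in a fit over all 58 mice, with limma 3.58.1 and R 4.3.3. DESeq2 1.42.0 served as an alternative. The scripts were tested on simulated data. Ratios to Mbp, correlations and likeness used log2(CPM + 0.1), with 100000 permutations in numpy 2.4.6. Exon lengths came from GENCODE vM21 (14711 genes, 97.0% of the table), and upstream windows from RefSeq. The 9 genes were named in each comparison. Of each list, at most 4 genes a direction were named for injury and 4 for any other test, by size, and the 10 genes most like the 9 were sought, of which 1 is not reported here. The 9 genes and the lists were chosen with earlier results of these data known. Alternatives were the Wald test of DESeq2, its size factors within edgeR, thinning every library to 4421308 counts, dropping the filter or setting it at 1 CPM in at least 6 mice, adding sex, and 1 fit over all mice. Leaving out the 2 mice named below and the 16 mice with choroid plexus genes was added after seeing the data.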

Additional observations from a re-analysis of the deposited data

Results flagged for a closer look

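Within groups, 72 sets of values (9 genes in 8 groups) were examined with Dixon's test for a mouse far from the rest of its group, and 5 stood out, where chance alone gives about 1 in 20. Each is given as a value. Mog was 60.5 CPM in the E4/Abca1+/+ TBI mouse numbered replicate 6, against 46.5 CPM in the next mouse. Mag was 146 CPM in E3/Abca1+/+ TBI replicate 7, against 118 CPM in the next. In E3/Abca1+/- TBI replicate 2, both Mag (176 CPM, next 131) and Cnp (316 CPM, next 259) were the highest of their group. Cnp in E4/Abca1+/- TBI replicate 4 was the lowest of its group at 265 CPM, with the next mouse at 292 CPM. These are all injured mice.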

How the results depend on the processing

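Of 163 recomputed counts of genes called, over 19 comparisons, 152 stayed within 1.5 times the reported count, and no called gene reversed. Of 1467 recomputed values of single genes, 16 lost and 11 gained a call, and 54 values without a call changed sign, 19 of them with thinning. The counts that moved were as follows. After TBI in E3/Abca1+/+ mice the count of 0 became 1 (Mobp) with DESeq2's Wald test and with 1 fit over all mice. In E3/Abca1+/- mice the count of 1 became 0 with DESeq2's size factors and with thinning, and 3 (Mbp, Ermn and Cldn11) without the mice with choroid plexus genes. Without those mice, E4/Abca1+/- went from 4 to 2 and the mean injury effect from 3 to 1. Between isoforms, DESeq2's Wald test gave 1 gene in place of 0 in Abca1+/+ TBI (Mbp) and Abca1+/- Sham mice (Ermn), and the mean effect went from 6 to 3 with thinning and to 2 without the mice with choroid plexus genes. The cause was not tested. Over all genes, thinning lowered the calls of the mean isoform effect from 2279 to 579 and of the mean injury effect from 8088 to 4984, and leaving out the choroid plexus mice lowered the former to 973. Leaving out E4/Abca1+/- TBI replicate 8 or Sham replicate 2 kept every count within 1.5 times, and without TBI replicate 8 the ratio of Mog to Mbp no longer passed (adjusted p = 0.0569). No paired analysis was possible because the labels give the mice no shared replicate numbers. Depth limits Opalin most, at 20 counts in the lowest mouse.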
